A study of Mus musculus with 4 samples.

Results

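The genes of the interferon response, with the guanylate-binding proteins and the MHC genes, were represented by 90 of the 15366 named genes measured in mouse bladder. They were taken by gene symbol from the array's annotation: the STAT and IRF factors, the Ifit, Ifi, Oas, Mx and Gbp families, every symbol that starts with H2-, and Isg15, Rsad2, Usp18, B2m, Tap1, Tap2, Cd74 and Ciita. Where a gene had several probes, the one with the highest mean over the 4 arrays stood for it, and 24 of the 90 genes had several. The symbol rule also took in 3 genes outside the response, namely Irf2bp1 and Irf2bpl, which encode partners of the factor Irf2, and H2-Ke6, a steroid dehydrogenase gene of the H2 region.

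Total RNA of the bladders of male mice on a normal diet was hybridised to Illumina arrays, 2 from animals after a sham operation and 2 from animals whose bladder outlet had been partly obstructed for 14 days. All 4 labels name the obstruction as treatment, and the titles separate the groups. The labels give no strain, age, pooling or time after the sham operation, nor whether each array holds a different mouse. The p-values therefore rest on the spread between these arrays, which may be technical. Values are log2 intensities with a median over all probes (the all-probe median) of 5.80, and 26 of the 90 genes lay below it in all 4 arrays, where a level says little. Among the bladder markers, the urothelial gene Upk2 measured 13.82 to 14.11 and the smooth muscle gene Myh11 12.76 to 14.69 (log2) over the arrays. Of 5 urothelial genes measured, 2 were below the all-probe median in every array, and of 6 smooth muscle genes 0 were. Genes of another tissue were high in the obstructed arrays.

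The obstructed arrays were less alike than the sham arrays, correlating at 0.969 across all probes against 0.989. All 7 marker genes of male accessory glands measured, such as the seminal vesicle gene Svs4, were higher in both obstructed arrays, with a list median of 3.34 above the sham mean in obstructed replicate 1 and 9.02 in obstructed replicate 2 (log2). Their summed linear intensity was 4131 in sham replicate 1, 378 in sham replicate 2, 10705 in obstructed replicate 1 and 214069 in obstructed replicate 2. In the latter array the urothelial genes summed to 23948 and the smooth muscle genes to 22146. Each obstructed array is therefore also given on its own in what follows. In whole tissue, fewer cells of a type and less RNA per cell cannot be told apart.

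Interferons are secreted proteins that cells release on sensing viral nucleic acid or, for interferon-gamma, that T and NK cells release. Their receptors signal through JAK kinases to STAT factors, and STAT and IRF factors then switch on genes for antiviral proteins, for GTPases that attack the compartments in which microbes live, and for the MHC proteins that present peptides to T cells. Class I MHC proteins are made by nearly all cells, whereas class II proteins are made mainly by macrophages, dendritic cells and B cells under the control of the coactivator Ciita.

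Guanylate-binding protein genes measured lower in the obstructed bladders wherever they were not dim. Of the 10 genes in this group, which are the 9 measured Gbp genes and the related GTPase gene Ifi47, 6 were lower in both obstructed arrays than in both sham arrays, by 0.85 to 1.72 on the log2 scale. Lack of overlap in that direction was found in 21.6% of all genes tested. The group's median difference was -1.0, against -0.016 over all genes. None of the 10 passed limma's test with Benjamini-Hochberg adjustment over all genes at 0.05, which called 0.0521% of all genes. At an unadjusted p below 0.05, the same 6 were lower, where 5.09% of all genes were. A difference of at least 1 log2 downward, which 1.13% of all genes showed, was measured in 5 of them.

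Gbp5, a GTPase that also takes part in inflammasome assembly, measured 8.43 and 8.25 in sham and 6.83 and 6.41 in obstructed bladders (log2 intensity, probe 105050687). The obstructed arrays lay well below both sham arrays, a difference of -1.72 with a standard error of 0.21 (95% interval -2.24 to -1.20, adjusted p = 0.104 by limma), or 3.29-fold. It ranked 38 from the lowest of the 15366 genes. A second probe of Gbp5 gave 7.53 and 8.15 against 6.55 and 5.94, a difference of -1.59.

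Gbp3, another GTPase of the family, measured 9.001 and 9.86 in sham and 7.94 and 7.93 in obstructed bladders. Here the sham arrays differed from each other by 0.86 and the obstructed arrays by 0.01, and the difference between the groups was -1.50 (SE 0.31, adjusted p = 0.302 by limma). Gbp2, which coats the vacuoles of intracellular parasites, measured 9.63 and 9.20 against 8.53 and 7.47, a difference of -1.42 (SE 0.38, adjusted p = 0.440 by limma). Obstructed replicate 2 was the lower of the pair for Gbp2, as it was for each of the 6 genes.

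Gbp2b, listed in older work as Gbp1, measured 7.02 and 7.91 in sham and 6.76 and 5.89 in obstructed bladders, and the difference was -1.15 (SE 0.39). Gbp7 measured 7.12 and 7.87 against 6.84 and 6.44, a difference of -0.85 (SE 0.29). For both genes sham replicate 1 lay close above obstructed replicate 1, within 0.28 log2. Each had an adjusted p of 0.542 by limma. Ifi47, a member of the other family of interferon-induced GTPases, the IRG proteins, measured 8.55 and 8.87 against 7.77 and 6.96, a difference of -1.34 (SE 0.31, adjusted p = 0.334 by limma).

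The other Gbp genes were dim. Gbp4, Gbp6, Gbp8 and Gbp9 lay below the all-probe median in every array, with differences of -0.18, 0.02, -0.01 and -0.05. The dim genes and the others also sit apart in the genome. In the RefSeq gene table Gbp5, Gbp7, Gbp3, Gbp2b and Gbp2 follow one another on chromosome 3 with no other protein-coding gene between them, while Gbp8, Gbp9, Gbp4 and Gbp6 lie in another cluster on chromosome 5.

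**Figure D1:**
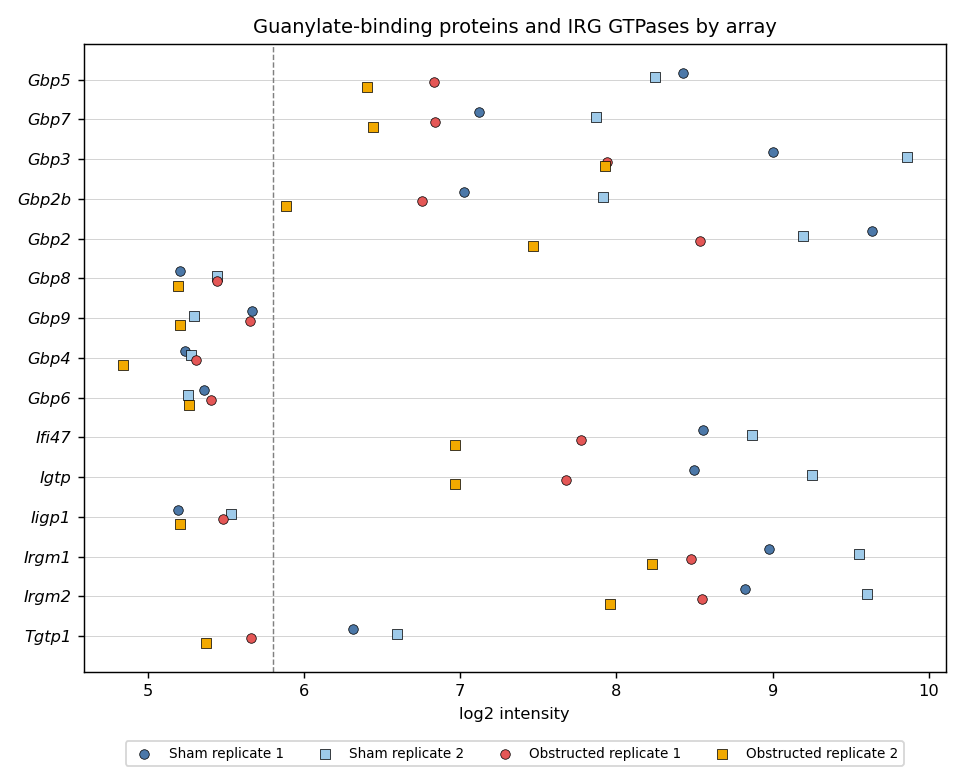
Log2 intensity of the 9 measured Gbp genes, Ifi47 and 5 further IRG genes in each of the 4 arrays, with the all-probe median, 5.80, as a dashed line. The chromosome 3 genes Gbp5 to Gbp2, Ifi47, Igtp, Irgm1, Irgm2 and Tgtp1 have both obstructed arrays below both sham arrays, and the other 5 genes overlap below the dashed line.

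Leaving out an obstructed array kept the direction of all 6 genes. Against the sham arrays, obstructed replicate 1 alone lay at -1.51 for Gbp5, -1.49 for Gbp3, -0.94 for Ifi47, -0.88 for Gbp2, -0.71 for Gbp2b and -0.65 for Gbp7. Obstructed replicate 2 alone lay lower, between -1.05 for Gbp7 and -1.95 for Gbp2. With obstructed replicate 1 left out all 6 passed limma's adjusted test, in a fit that called 8.45% of all genes, and with obstructed replicate 2 left out Gbp5 (adjusted p = 0.00107) and Gbp3 (adjusted p = 0.0159) passed, in a fit that called 2.1%. In these fits the lone obstructed array is assumed to vary like the sham arrays. With either sham array left out, limma called 0 of the 15366 genes, with 9 and 4 members at an unadjusted p below 0.05 and a lower mean.

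The promoters of the chromosome 3 genes are shown because these genes were lower together. The binding site of the interferon-stimulated factors, the interferon-stimulated response element, has the core GAAA and GAAA with any 2 bases between them, and it was searched on both strands from 250 bases before to 50 after each gene's start in RefSeq's sequences of build GRCm38.p6. At least 1 copy was found in 5 of 5 of these genes. Counted by gene in the same way, it was found in 3.99% of all genes with a promoter. Counted by promoter of that length, it was in 1131 of all 32851, or 3.44%. The dim chromosome 5 genes Gbp4, Gbp6, Gbp8 and Gbp9 had no promoter sequence here, so they were not searched. The windows, all on the plus strand, are chr3:142496684-142496983 for Gbp5, chr3:142530086-142530385 for Gbp7, chr3:142559794-142560093 for Gbp3, chr3:142594597-142594896 for Gbp2b and chr3:142620413-142620712 for Gbp2. Capitals mark the matches, which all read in the reverse direction here.
Gbp5: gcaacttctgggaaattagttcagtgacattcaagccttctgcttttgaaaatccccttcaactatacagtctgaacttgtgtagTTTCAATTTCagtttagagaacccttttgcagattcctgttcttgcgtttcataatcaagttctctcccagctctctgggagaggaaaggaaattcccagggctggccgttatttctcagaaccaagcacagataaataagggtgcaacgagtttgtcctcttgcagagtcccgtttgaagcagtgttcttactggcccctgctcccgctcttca
Gbp7: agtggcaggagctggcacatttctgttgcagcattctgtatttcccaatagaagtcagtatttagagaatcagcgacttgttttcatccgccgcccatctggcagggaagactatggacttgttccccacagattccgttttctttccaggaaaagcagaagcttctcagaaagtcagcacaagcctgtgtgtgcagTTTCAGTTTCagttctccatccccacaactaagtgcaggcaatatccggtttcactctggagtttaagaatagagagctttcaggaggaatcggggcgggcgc
Gbp3: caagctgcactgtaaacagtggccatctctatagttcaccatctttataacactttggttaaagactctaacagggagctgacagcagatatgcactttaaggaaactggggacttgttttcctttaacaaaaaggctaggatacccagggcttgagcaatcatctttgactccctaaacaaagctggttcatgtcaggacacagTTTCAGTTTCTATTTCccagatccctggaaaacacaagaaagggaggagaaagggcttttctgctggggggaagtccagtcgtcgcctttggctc
Gbp2b: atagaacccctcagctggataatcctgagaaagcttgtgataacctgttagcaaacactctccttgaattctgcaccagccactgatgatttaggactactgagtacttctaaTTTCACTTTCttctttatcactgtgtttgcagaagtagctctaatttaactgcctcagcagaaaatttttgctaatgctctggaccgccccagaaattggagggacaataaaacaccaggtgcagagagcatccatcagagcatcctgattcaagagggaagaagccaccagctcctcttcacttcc
Gbp2: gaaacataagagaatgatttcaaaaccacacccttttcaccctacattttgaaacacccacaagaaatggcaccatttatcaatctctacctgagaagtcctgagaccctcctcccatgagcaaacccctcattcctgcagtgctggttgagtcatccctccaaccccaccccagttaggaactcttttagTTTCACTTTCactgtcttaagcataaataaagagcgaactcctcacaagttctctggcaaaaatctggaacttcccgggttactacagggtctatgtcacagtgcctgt

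The match began 165 bases before the gene's start in Gbp5, 137 in Gbp2b, 59 in Gbp2 and 53 in Gbp7, and Gbp3 held 2 overlapping matches, the first 45 bases before its start. The second start listed for Gbp3 held none. Isg15, an antiviral member described next, is set beside them because it held 3 overlapping matches, the first 78 bases before its start, while its groups differed by -0.38 (log2). Its window is chr4:156200769-156201068, minus strand.
Isg15: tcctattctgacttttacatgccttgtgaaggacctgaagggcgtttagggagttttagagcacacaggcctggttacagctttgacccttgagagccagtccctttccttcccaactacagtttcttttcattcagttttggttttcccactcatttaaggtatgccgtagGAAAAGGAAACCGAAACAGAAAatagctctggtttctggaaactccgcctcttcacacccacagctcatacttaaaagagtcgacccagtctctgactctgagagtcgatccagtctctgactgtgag

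Over all members with a promoter in the table, 20 of 69 held the core, against 3.99% of all genes counted in the same way. By group it was in 9 of 17 antiviral effectors, 3 of 21 class I genes and 0 of 8 class II genes. Ifi47 held none in this window. The STAT site TTCNNNGAA, which reads the same on both strands, was in 13 of the 69 and in 9.55% of all genes with a promoter. No match of either motif overlapped one of the other. A match is a run of letters and does not show that a factor binds.

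Antiviral effector genes were mostly lower as well, by less. Of the 25 genes in this group, 20 had a lower mean in obstructed bladders, where 53.1% of all genes did. In that direction 12 did not overlap, against 21.6% of all genes, and 1 did not overlap upward, against 17.6%. The group's median difference was -0.18, and 12 of the 25 were below the all-probe median in every array. None passed the adjusted test. At an unadjusted p below 0.05, 3 were lower, namely Ifit3 and the dim genes Oas1d and Ifi202b, where 5.09% of all genes were.

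Ifit3, which belongs to a family of RNA-binding inhibitors of viral translation, measured 7.52 and 7.70 in sham and 7.32 and 6.69 in obstructed bladders, a difference of -0.61 (SE 0.25, adjusted p = 0.611 by limma). Its 2 dimmer probes differed by -0.60 and -0.72. Ifit2 measured 7.72 and 8.24 against 7.51 and 7.44, a difference of -0.50 (SE 0.23). Both genes had the obstructed arrays below the sham arrays, though the nearest pair lay within 0.21.

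Isg15, a ubiquitin-like protein that is joined to other proteins, measured 7.16 and 7.88 in sham and 7.16 and 7.12 in obstructed bladders. Sham replicate 2 stood apart while the other 3 arrays were nearly level, and the difference was -0.38 (SE 0.26). Rsad2, the antiviral enzyme viperin, had a like shape, with 7.26 and 7.93 against 7.31 and 7.10. Usp18, which removes Isg15 from its targets, differed by -0.16, and Ifi27 by -0.18. Of the 11 Oas genes, a family of sensors of double-stranded RNA, 8 were below the all-probe median in every array, and Oas1g, at 6.28 to 6.64, differed by -0.18. Its probes above the all-probe median did not agree in sign, lying between -0.19 and 0.13.

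Ifi27l2a, an interferon-induced gene of a mitochondrial protein family, gave the largest difference of any member, and it came from 1 array. It measured 11.75 and 11.79 in sham, 11.58 in obstructed replicate 1 and 5.41 in obstructed replicate 2, which is below the all-probe median. The mean difference of -3.28 had a standard error of 1.79 (adjusted p = 0.704 by limma), and obstructed replicate 1 alone lay at -0.19 from the sham mean. A second, dim probe of Ifi27l2a read 5.48 to 5.68 in every array. Ifi205, an interferon-induced DNA-binding protein, also had its low value in obstructed replicate 2, with 7.96, 8.39 and 8.13 in the other arrays and 6.61 there. Of its 5 dimmer probes, 3 were below both sham arrays in both obstructed arrays. Probe 101170731 read 6.26 and 6.19 in sham against 5.64 and 5.30, a difference of -0.75 (adjusted p = 0.256 by limma with every probe fitted). Probe 102940072 differed by -0.58 (adjusted p = 0.577 in the same limma fit) and probe 1400019 by -0.20, and the other probes by -0.064 and 0.041.

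**Figure D2:**
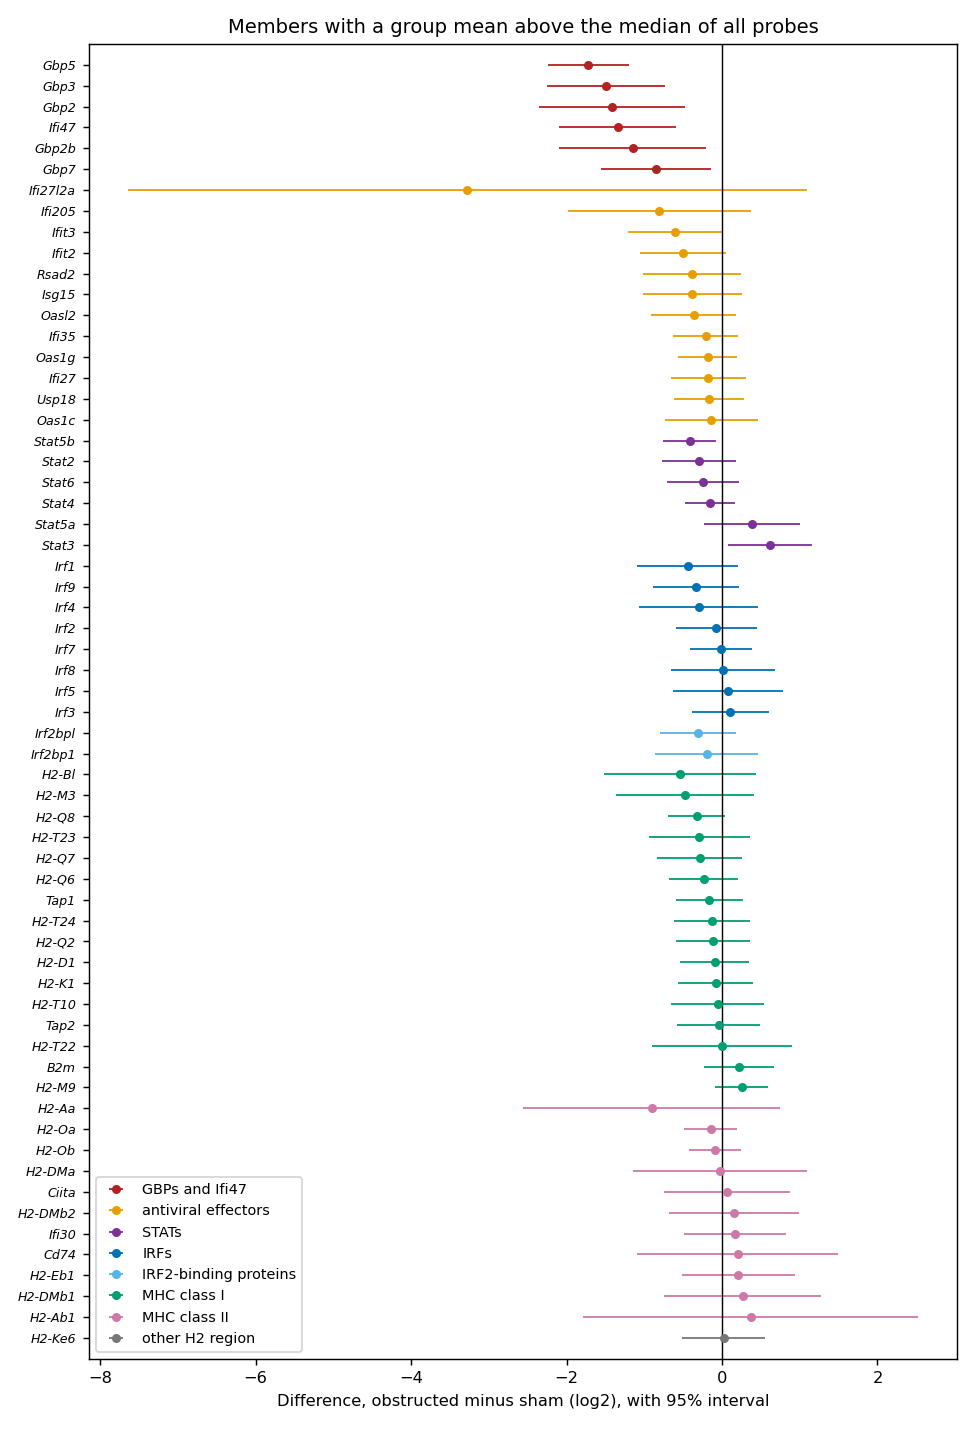
Difference in log2 intensity, obstructed minus sham, for each member with a group mean above 5.80, with its 95% interval from limma, by role. The 6 Gbp and Ifi47 intervals, and those of Ifit3, Stat5b and Stat3, exclude 0 before adjustment, and Ifi27l2a has the widest interval, from -7.64 to 1.09.

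Among the transcription factors, Stat3 was the member with the largest higher difference. Stat3, which relays signals of the interleukin-6 family more than those of interferons, measured 10.42 and 10.76 in sham and 11.34 and 11.06 in obstructed bladders. Both obstructed arrays were above both sham arrays, a difference of 0.61 (SE 0.22, 95% interval 0.07 to 1.16, adjusted p = 0.567 by limma), and a second probe differed by 0.57. At an unadjusted p below 0.05 Stat3 was the 1 member that was higher, where 3.05% of all genes were.

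The other STAT genes differed by -0.42 to 0.38. Stat2, a factor of type I interferon signalling, measured 6.001 and 6.51 in sham and 5.97 and 5.95 in obstructed bladders, close to the all-probe median. Stat6, the factor of interleukin-4 signalling, measured 7.496 and 7.34 against 7.33 and 7.01, a difference of -0.24. Stat5a measured 6.10 and 6.18 against 6.15 and 6.89, so that its difference of 0.38 came from obstructed replicate 2. Stat5b, named after its values were seen, differed by -0.42 at a level of 5.44 to 6.01, around the all-probe median.

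Of the 8 IRF genes 5 had a lower mean, where 53.1% of all genes did, and none passed the adjusted test. Irf1, the main IRF factor downstream of interferon-gamma, measured 8.37 and 8.77 in sham and 8.40 and 7.86 in obstructed bladders, a difference of -0.44 (SE 0.27), with 3 dimmer probes at -0.35 to -0.44. Obstructed replicate 1 lay between the sham arrays, so the groups overlapped. Irf9, the DNA-binding partner of Stat2, measured 8.53 and 8.68 against 8.47 and 8.07, a difference of -0.33 (SE 0.22). Irf7, the amplifier of type I interferon production, was level, with 7.23 and 7.25 against 7.31 and 7.15 and an interval of the difference from -0.41 to 0.39. Irf3, which starts that production, measured 10.01 and 9.84 against 10.098 and 9.96, and Irf2, a repressor of Irf1 targets, 11.03 and 11.04 against 10.76 and 11.15. In the myeloid factors Irf8 and Irf5 and in Irf4 the 2 obstructed arrays lay on either side of both sham arrays, with replicate 1 above, as was also so for Irf7. The partners of Irf2 differed by -0.31 for Irf2bpl, with 6.27 and 5.92 against 5.99 and 5.57, and -0.20 for Irf2bp1, with 9.03 and 8.66 against 8.92 and 8.37.

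MHC class I genes had small differences between the groups. The 27 genes in this group include the light chain B2m and the peptide transporter subunits Tap1 and Tap2. Of them 15 had a lower mean, where 53.1% of all genes did, and 12 a higher one. Their median was -0.04, and 10 were below the all-probe median in every array. None passed the adjusted test or had an unadjusted p below 0.05, and 4 did not overlap downward and 2 upward, against 21.6% and 17.6% of all genes. The 10 dim genes held 2 of the lower and 8 of the higher means, and the other 17 held 13 and 4. H2-K1 and H2-D1, the classical genes that present peptides to cytotoxic T cells, lay far above the all-probe median. H2-K1 measured 12.16 and 12.37 in sham and 11.997 and 12.38 in obstructed bladders, with an interval of the difference from -0.56 to 0.40. H2-D1 measured 12.79 and 12.58 against 12.76 and 12.42, with an interval from -0.54 to 0.35. B2m, the light chain, measured 13.47 and 13.61 in sham against 13.52 and 13.99, a difference of 0.21 (SE 0.18).

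Some class I genes followed obstructed replicate 2 instead. H2-M3, which presents formylated peptides of bacteria, measured 7.55 and 7.74 in sham, 7.73 in obstructed replicate 1 and 6.61 in obstructed replicate 2. H2-Bl had the same pattern, with 7.02, 7.36 and 7.28 and then 6.02. H2-Q8 was low in both, with 7.05 and 7.11 against 6.7996 and 6.72, a difference of -0.32 (SE 0.15, adjusted p = 0.651 by limma). H2-M9, near the all-probe median, was higher, with 5.70 and 5.91 against 6.02 and 6.10. H2-T22 differed by 0.01 and its dimmer probe by -0.23, and H2-Ke6, the dehydrogenase gene, by 0.02 with 10.598 and 10.32 against 10.35 and 10.61. H2-Q6, H2-Q7 and H2-T23, named after their values were seen, were lowest in obstructed replicate 1. H2-T23, the Qa-1 gene whose product engages NK receptors, measured 11.19 and 11.07 in sham, then 10.51 and 11.17, and its 3 probes were all lowest there. The H2-Q, H2-T and H2-M genes are families of near copies, and the sequences of the probes were not used here, so a probe's signal may come from more than 1 of them.

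One class I probe separated a single array from the rest. The second probe of H2-D1 read 5.81 and 5.64 in sham, 11.32 in obstructed replicate 1 and 5.98 in obstructed replicate 2, while the brighter probe of the same gene lay at 12.42 to 12.79 in all 4. Averaging the probes turned the difference of H2-D1 from -0.10 to 1.41. Together with Ifi27l2a, low in obstructed replicate 2, this makes 2 members whose probe was near the all-probe median in some arrays and above 11 in others, and the cause was not tested. The class II gene H2-Ab1, the beta chain of the I-A molecule, also had probes that disagreed in sign, at 0.37 and -0.34, though both were highest in obstructed replicate 1 and lowest in obstructed replicate 2.

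**Figure D3:**
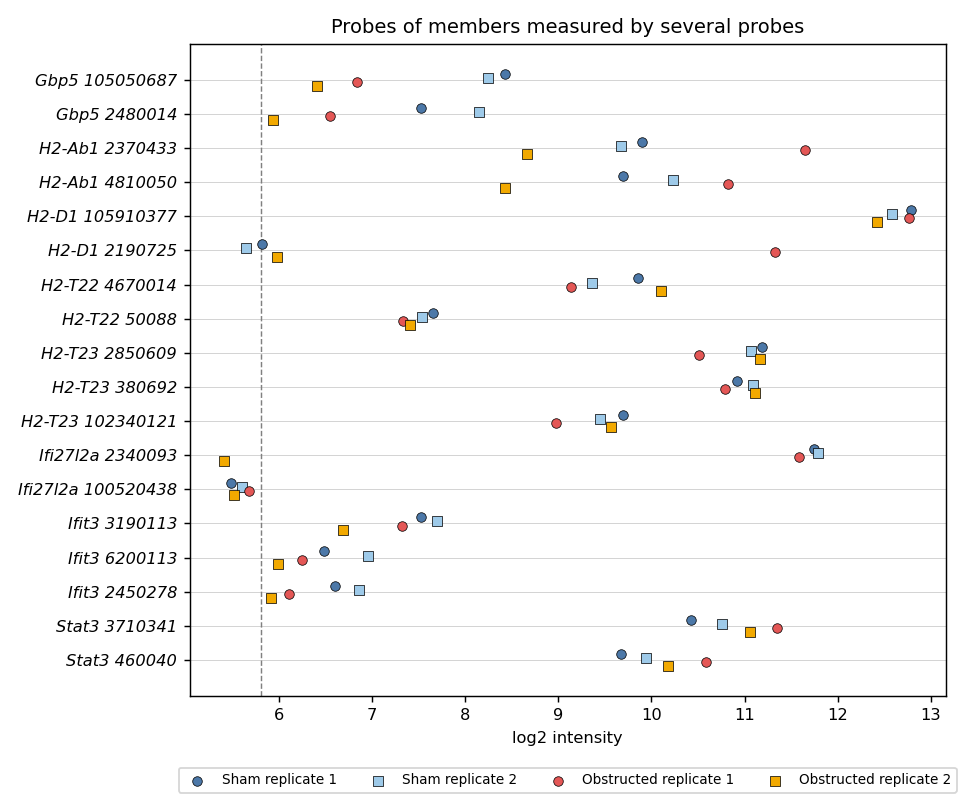
Log2 intensity of every probe of 8 members with several probes, in each of the 4 arrays, with the probe number beside the gene and the all-probe median as a dashed line. H2-D1 probe 2190725 is at 11.32 in obstructed replicate 1 and below 6 in the rest, Ifi27l2a probe 2340093 is at 5.41 in obstructed replicate 2, and the probes of Gbp5, Ifit3 and Stat3 give the same direction as one another.

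MHC class II genes set the 2 obstructed arrays apart from each other. Of the 11 genes in this group, which includes the invariant chain Cd74, Ciita and the lysosomal reductase Ifi30, 7 were above both sham arrays in obstructed replicate 1 and below both in obstructed replicate 2, a pattern shown by 11.6% of all genes. The median of the group was 0.60 from the sham mean in obstructed replicate 1 and -0.34 in obstructed replicate 2, and 0.16 for the difference of the groups. In obstructed replicate 1, 8 of the 11 were above both sham arrays, where 36.4% of all genes were, and in obstructed replicate 2, 10 were below both, where 41.7% were. None passed the adjusted test or had an unadjusted p below 0.05, and the difference between the groups says little where the obstructed arrays lie on opposite sides.

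H2-Ab1 measured 9.90 and 9.67 in sham, then 11.65 and 8.67 in obstructed replicates 1 and 2. The gap of 2.98 between the obstructed arrays ranked 8 from the largest in that direction of the 15366 genes. H2-Aa, its alpha chain partner, measured 10.68 and 11.37 in sham, then 11.19 and 9.04, so that obstructed replicate 1 lay between the sham arrays and obstructed replicate 2 far below. Cd74, the chaperone of class II molecules, measured 11.24 and 11.78 in sham, then 12.54 and 10.88, a gap of 1.66. Obstructed replicate 1 exceeded obstructed replicate 2 by at least 1 log2 in H2-Ab1, H2-Aa, Cd74, H2-DMa and H2-DMb1, and 2.1% of all genes did so.

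H2-Eb1, the beta chain of the I-E molecule, measured 9.81 and 9.75 in sham, then 10.38 and 9.60. H2-DMb1, part of the molecule that loads peptides, measured 8.18 and 8.16, then 9.08 and 7.80. Ciita, the coactivator, lay not far above the all-probe median, at 5.98 and 6.71 in sham and 6.79 and 6.03 in the obstructed arrays. The sham arrays differed nearly as much as the obstructed ones. H2-Oa and H2-Ob, which restrain peptide loading mainly in B cells, stayed between 6.06 and 6.37 in every array, with differences of -0.14 and -0.10. With obstructed replicate 2 left out, the difference was 1.86 for H2-Ab1, 1.03 for Cd74, 0.91 for H2-DMb1 and 0.17 for H2-Aa. With obstructed replicate 1 left out, it was -1.12, -0.63, -0.37 and -1.98 for the same genes.

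**Figure D4:**
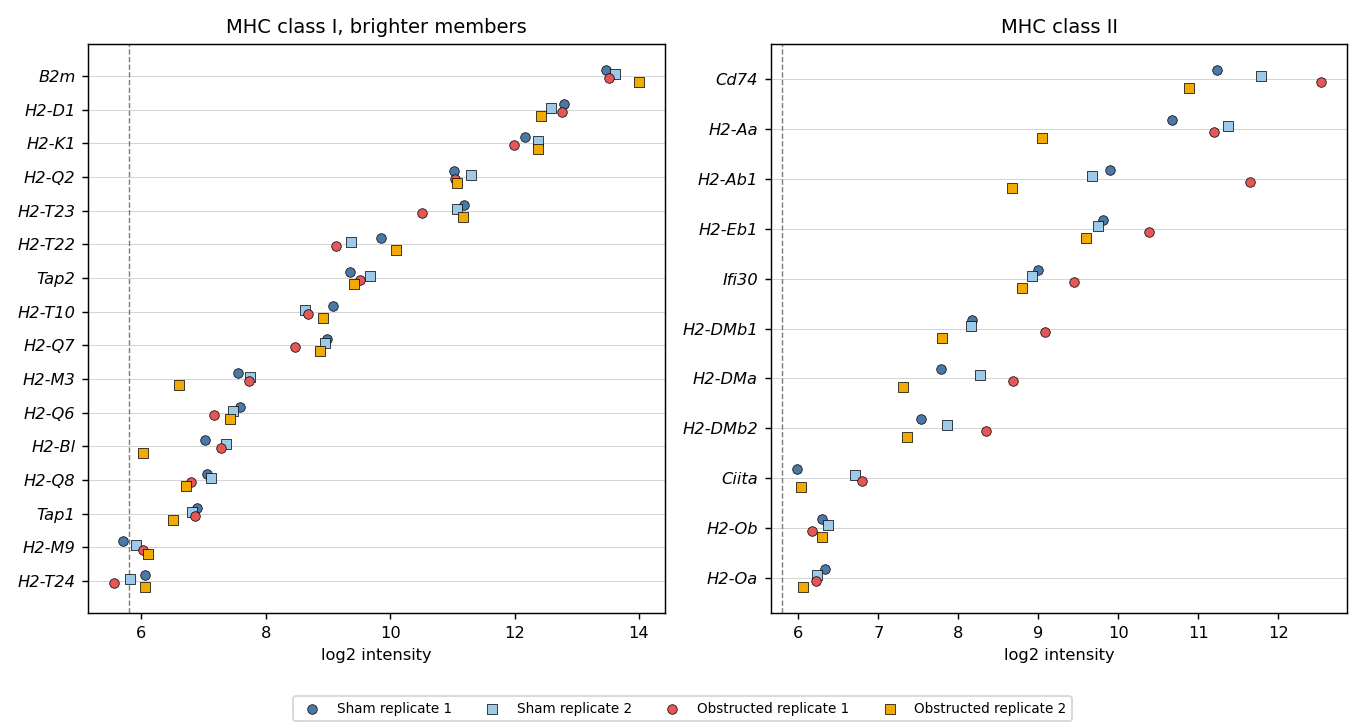
Log2 intensity in each array of the 16 class I members with a group mean above the all-probe median (left) and the 11 class II members (right), with that median as a dashed line. The class I arrays lie close together for H2-D1 and H2-K1, while in class II obstructed replicate 1 is highest and obstructed replicate 2 lowest for H2-Ab1, Cd74, H2-Eb1, Ifi30 and the H2-DM genes.

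Macrophage marker genes had the same split, and the lists of all leukocytes and of T and NK cells had it in part. Over all genes, 36.4% were above both sham arrays in obstructed replicate 1 and 41.7% below both in obstructed replicate 2. Of 7 macrophage genes measured, 6 were above both sham arrays in obstructed replicate 1 and 7 below both in obstructed replicate 2, with list medians of 0.48 and -0.75 from the sham mean, and their summed linear intensity was 3141 and 3573 in sham, 4700 in obstructed replicate 1 and 1804 in obstructed replicate 2. None of the 7 was below the all-probe median in every array. Adgre1, the macrophage antigen F4/80, measured 9.83 and 9.75 in sham, then 10.06 and 9.04, and the complement gene C1qb 8.86 and 9.29, then 10.24 and 8.50. Of 4 genes of all leukocytes, 4 were above both sham arrays in obstructed replicate 1 and 3 below both in obstructed replicate 2, with a summed intensity of 3939 and 4086, then 6191 and 4130. Of 6 T and NK cell genes, 4 were above both sham arrays in obstructed replicate 1 and 5 below both in obstructed replicate 2, with list medians of 0.25 and -0.30 from the sham mean. For dendritic cells the counts were 4 and 3 of 7 genes, and for neutrophils 1 and 1 of 3. With so few genes these counts are not far from the shares of all genes. The neutrophil median was 0.05 for the difference of the groups, with a summed intensity of 198 and 282, then 242 and 239. Among the leukocyte genes Cd52 is also known from the male reproductive tract, and it read 10.90 in obstructed replicate 2. The part of these markers, and of the accessory gland genes, in the class II values was not tested.

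**Figure D5:**
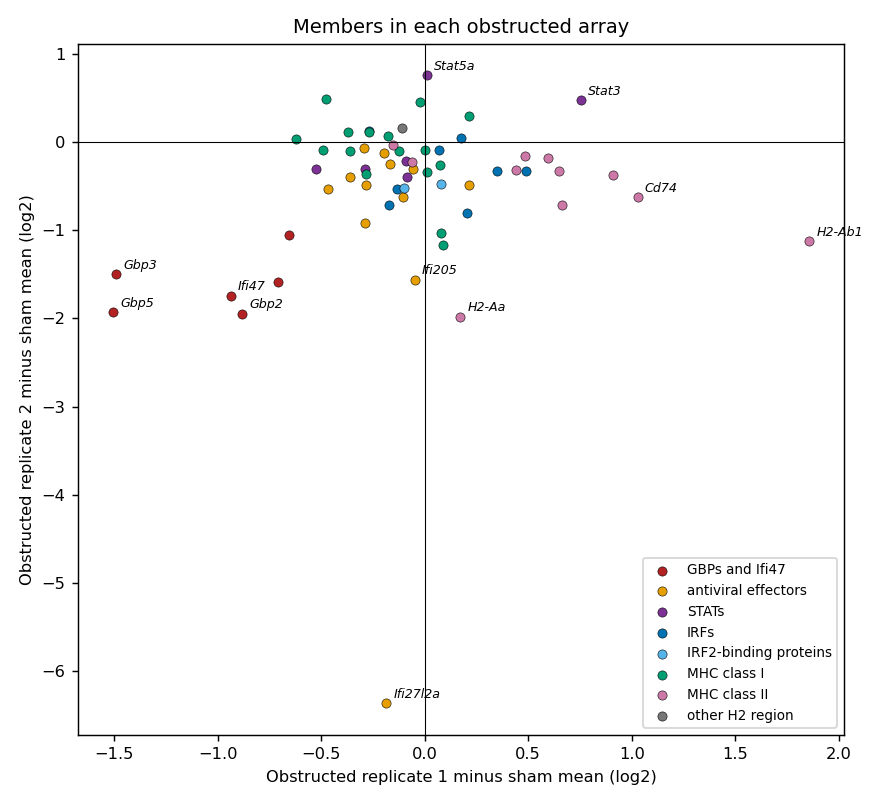
Difference of each member with a group mean above the all-probe median from the sham mean, in obstructed replicate 1 (horizontal) and obstructed replicate 2 (vertical), in log2 units and coloured by role. The same sham arrays enter both axes. The Gbp genes and Ifi47 lie lower left, 9 of the 11 class II genes lower right, H2-Oa and H2-Ob lower left near the origin, and Ifi27l2a at -6.36 on the vertical axis.

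Between the groups, the lists of lymphocyte, dendritic cell and endothelial markers had medians of -0.13 to 0.06. For the T and NK cell, B cell and dendritic cell lists, the medians of obstructed replicates 1 and 2 lay on opposite sides of the sham mean. Of the 6 T and NK cell genes 3 had a lower mean, where 53.1% of all genes did. Their list median was 0.06, and the summed intensity was 449 and 458 in sham, then 541 and 367. The NK receptor gene Klrb1c differed by -0.43 and the granule gene Nkg7 by -0.34, both without overlap, while the T cell receptor gene Cd3e differed by 0.18. Dendritic cell genes had a median of 0.01 over 7 genes, with a summed intensity of 599 and 538, then 617 and 480, and B cell genes one of -0.07 over 4, with 262 and 204, then 243 and 201. Endothelial genes had a median of -0.13 over 4, with 1229 and 1346, then 1428 and 1022. Below the all-probe median in every array were the B cell genes Cd79a and Cd22, the T cell gene Cd4 and the dendritic cell gene Clec9a.

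Some markers were below both sham arrays in both obstructed arrays, as the Gbp genes were. They were 3 of 4 adipocyte genes, 4 of 6 smooth muscle genes, the NK cell genes just named and 1 gene each of the macrophage, dendritic cell, plasmacytoid dendritic cell, fibroblast, endothelial and urothelial lists, where 21.6% of all genes were. The macrophage gene was Mrc1, the mannose receptor, at 8.95 and 9.16 in sham, then 8.71 and 7.48. The adipocyte genes had a median of -1.23 over 4 genes and a summed intensity of 2012 and 977 in sham, then 210 and 239. The smooth muscle genes had a list median of -0.80 and a summed intensity of 46610 and 58196 in sham, then 43975 and 22146. Fibroblast genes had a median of -0.29 over 4 genes, with 33307 and 35822, then 36748 and 22120. The part of these cells, and of the accessory gland genes that were higher in both obstructed arrays, in the Gbp values was not tested.

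Other genes of the pathway came from lists outside the members. Of 26 further interferon-induced genes, 22 had a lower mean, against 53.1% of all genes, and the median was -0.16. The groups did not overlap downward in 11, against 21.6% of all genes. By limma's adjusted test 0 passed, and 7 were lower at an unadjusted p below 0.05, against 5.09% of all genes. The IRG GTPases led them, as Ifi47 did among the members. Igtp measured 8.495 and 9.25 in sham and 7.67 and 6.96 in obstructed bladders, a difference of -1.56 (SE 0.35, adjusted p = 0.333 by limma). Irgm2 differed by -0.96 (SE 0.34) and Tgtp1 by -0.94 (SE 0.17), and Irgm1, named after its values were seen, by -0.91 (SE 0.26). Both obstructed arrays were below both sham arrays for these 4, and the dim gene Iigp1 differed by -0.02. The membrane proteins Ifitm1, Ifitm2 and Ifitm3, which block virus entry, differed by -0.57, -0.17 and -0.22, with the groups overlapping. Cxcl9, a chemokine gene induced by interferon-gamma, differed by -0.69 (SE 0.32). The Ifitm genes, Iigp1 and Cxcl9 were also named after their values were seen.

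The interferon genes themselves were dim. All 8 interferon genes measured lay near or below the all-probe median, the highest single value being 6.26 for Ifne in obstructed replicate 1. Ifng, the gene of interferon-gamma, measured 5.56 and 5.53 in sham and 6.003 and 5.83 in obstructed bladders, a difference of 0.37 (SE 0.13, adjusted p = 0.547 by limma), opposite in sign to the Gbp genes. Ifna1 differed by -0.31.

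Receptors and kinases had a median of 0.06 over 14 genes, with 0 past the adjusted test. The kinase gene Jak2, which sits on the interferon-gamma receptor, measured 8.49 and 9.05 in sham and 8.17 and 7.89 in obstructed bladders, a difference of -0.74 (SE 0.26, adjusted p = 0.552 by limma). Pias1, an inhibitor of STAT factors, differed by -0.42, and the phosphatase gene Ptpn6, known chiefly from blood cells, by 0.40. The interferon-gamma receptor genes Ifngr1 and Ifngr2, named after their values were seen, differed by -0.25 and 0.04. Among the 12 sensors and adaptors the median was -0.15 with 0 past the adjusted test, the largest differences being those of the RNA sensor Ifih1, at -0.36, the adaptor Ticam1, at 0.29, and the receptor Tlr3, at -0.27.

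Antigen processing genes had a median of -0.07 over 19 genes, with 0 past the adjusted test. At an unadjusted p below 0.05, 1 was lower and 1 higher, against 5.09% and 3.05% of all genes. The immunoproteasome subunit Psmb9, which replaces a standard subunit under interferon-gamma, measured 9.39 and 9.90 in sham and 9.36 and 8.51 in obstructed bladders, a difference of -0.71 (SE 0.35). Erap1, which trims peptides for class I molecules, measured 7.32 and 7.27 against 6.56 and 6.68, a difference of -0.67 (SE 0.15, adjusted p = 0.334 by limma). Creb1, a factor that also binds class II promoters, went the other way, with 6.03 and 6.17 against 6.93 and 7.04, a difference of 0.89 (SE 0.15, adjusted p = 0.184 by limma). All 3 had both obstructed arrays on one side of both sham arrays.

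Over all 90 members, 59 had a lower mean, against 53.1% of all genes. The groups did not overlap downward in 29 and upward in 4, against 21.6% and 17.6% of all genes. The median difference was -0.10 against -0.016. In obstructed replicate 1 alone 38 members lay below both sham arrays and in obstructed replicate 2 alone 60, where 36.7% and 41.7% of all genes did. Adjusted over all genes, 0 members passed by limma, against 0.0521% of all genes. At an adjusted p below 0.1, passed by 0.15% of all genes, there were also 0. At an unadjusted p below 0.05, 10 members were lower and 1 higher, against 5.09% and 3.05% of all genes. With obstructed replicate 1 left out, the difference was -1.93 for Gbp5, -1.50 for Gbp3 and -1.12 for H2-Ab1. With obstructed replicate 2 left out, it was -1.51, -1.49 and 1.86. H2-Ab1 thus went in opposite directions in these fits, which leave 1 obstructed array, and Gbp5 and Gbp3 in the same one.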

How the data were processed

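Biotin-labelled cRNA of mouse bladder was measured on Illumina arrays, per the labels. The authors deposited normalized values, taken here as log2 intensities because they run from 4.14 to 15.63, and no filter or floor was applied. The 4 arrays share nearly one distribution, their sorted values differing by at most 0.0252. How background was corrected, and with which software, is not given in the sources used here. The number of arrays limits the precision. Gene names came from the platform annotation: 22380 of 46657 probes had 1 symbol, 0 had several and 24277 are unnamed here.

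The difference of obstructed minus sham was fitted with limma 3.58.1 in R 4.3.3 by lmFit and eBayes with a variance trend, two-sided, with Benjamini-Hochberg adjustment over 15366 genes and 6.04 degrees of freedom. Medians and counts of groups of genes are descriptions with no test. Members, lists and motifs were chosen with earlier results of these data known. Array values are given for the 8 members per direction with the largest difference and a higher group mean above the median of all probes, the 4 of each role with the smallest p, fixed key genes, and members whose probes differ in sign. From each other pathway list the 3 genes with the largest difference were named. Further members with a value were named after their values were seen. Ifi47 was grouped with the Gbp genes, Ifi30 with class II.

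In 5 simulations of this comparison on 15366 genes, 27.4% of genes changed 2-fold and 89% of those changed 4-fold were called. All simulated arrays had the same variance for a gene. The real obstructed arrays were less alike than the sham arrays, so these shares may not hold here. Replicates are numbered 1 and 2 in each group, but the labels do not link a number across the groups, so no pairing was used. The deviations of same-numbered arrays correlated at -0.017. Alternatives were quantile normalization, centring, a floor, a filter on dim genes, the mean of probes or every probe, other moderation, a replicate block, each array left out and a looser threshold, with array weights and single obstructed arrays added after seeing the data. Figures used Python 3.11.15 and matplotlib 3.10.9.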

Additional observations from a re-analysis of the deposited data

How the results depend on the processing

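The count of members called by limma was 0 under quantile normalization, centring, the floor of 50, the filter on dim genes, the mean of probes, every probe on its own, both other moderations, the replicate block, array weights and an adjusted p below 0.1. With 1 array left out it ran from 0 to 16, the 16 without obstructed replicate 1 and 6 without obstructed replicate 2, and the median of the members ran from -0.26 to -0.055. The replicate block left 7 members lower and 1 higher at an unadjusted p below 0.05, against 10 and 1, with the same median of -0.10, and changed no call among the members. The floor left 4 lower and 0 higher, and a median of -0.019. The calls over all genes, 8 in all, were 1 under the block, 0 under the floor, 3 with dim genes out, 17 with the robust moderation, 12 with array weights, 0 without either sham array, 1299 without obstructed replicate 1 and 323 without obstructed replicate 2.

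Of the 40 named members, 24 kept their sign under every alternative run, among them Gbp2, Gbp2b, Gbp3, Gbp5, Gbp7, Ifi47, Ifit2, Ifit3 and Stat3. With probes averaged H2-D1 turned to 1.41 and H2-T22 to -0.11. With 1 array left out the sign changed within these ranges: B2m -0.025 to 0.45, Cd74 -0.63 to 1.03, Ciita -0.32 to 0.44, H2-Aa -1.98 to 0.17, H2-Ab1 -1.12 to 1.86, H2-Bl -1.17 to 0.089, H2-D1 -0.27 to 0.076, H2-DMb1 -0.37 to 0.91, H2-Eb1 -0.18 to 0.60, H2-K1 -0.27 to 0.11, H2-Ke6 -0.12 to 0.16, H2-M3 -1.03 to 0.080, H2-T22 -0.48 to 0.49, Irf2 -0.27 to 0.12, Irf2bp1 -0.48 to 0.077 and Irf7 -0.090 to 0.068. The cause was not tested.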
